A study of Mus musculus with 6 samples.

Results

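Malat1 is a long noncoding RNA (lncRNA) of the nucleus, and the peaks described here are the 38 peaks of the deposited AGO2 target list, out of 2197, that had their midpoint within its span on the minus strand (chr19:5795690-5802672, mm10, 6983 bases). The peaks were chosen by that position and strand, so their number and place are a description and support nothing further. The study isolated RNA bound to AGO2, the Argonaute protein that carries a microRNA (miRNA) to its target, in the cortex at postnatal day 14. The animals were mice from a cross of VGLUT2-Cre animals with a conditional Spy3-AGO2 line, in which Cre switches on a peptide tag on AGO2 that couples to SpyCatcher3 on a resin. A VGLUT2 driver acts in cells that express or once expressed this glutamate transporter, and the labels name pyramidal neurons. The 6 libraries form 3 groups of 2: AGO2-bound target, AGO2-bound miRNA and input, the last from whole lysate, all of the same genotype and age. Whether replicates stand for different animals, and whether animals were pooled, is not given in the sources used here.

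Malat1 is among the most abundant nuclear transcripts of mammalian cells and gathers in nuclear speckles, bodies rich in splicing factors. It is transcribed as a mostly unspliced RNA without a poly(A) tail. Its 3′ end is made when RNase P cuts off a small tRNA-like RNA, mascRNA, which moves to the cytoplasm, and a triple helix then shields the end of the long nuclear RNA. In brain it is found in neurons and in glia, so peaks on it do not by themselves mark a cell type. Malat1 has been described, mostly in human cells, as a partner of several miRNAs, and AGO2 is known to occur in the nucleus as well as in the cytoplasm.

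The peak list gives 1 set of intervals for the target libraries, with no value per library, and the score in it is 0 for all 2197 peaks. No replicate spread and no test can therefore be given for a peak, and whether the input entered the peak calling is not given in the sources used here. Among genes that mark the labelled pyramidal neurons, Slc17a7, the vesicular glutamate transporter of cortical projection neurons, held 5 peaks. Camk2a, a kinase of excitatory neurons, held 4 and Neurod6 held 0. Slc17a6, which encodes the VGLUT2 of the driver, also held 0. The driver acts as well in cells that only once expressed Slc17a6, so its 0 is not read as a missing marker. Of genes that mark other cells, Slc1a2, a glutamate transporter gene most abundant in astrocytes, held 45, the myelin gene Mbp held 2 and the astrocyte gene Gfap held 0. Slc1a2 thus held more peaks than any of the neuronal markers named. These raw counts can depend on expression, and they were not adjusted for it or for gene length. The input libraries were not used here as a measure of expression.

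Distances along Malat1 are counted from its 5′ end, the higher coordinate on this strand. The first 50 bases of the transcript (chr19:5802623-5802672, minus strand, GRCm38.p6, from RefSeq) are shown because they fix the point from which all positions below are read, and because they lie in the stretch without peaks at the start of the RNA.
Malat1, bases 1 to 50: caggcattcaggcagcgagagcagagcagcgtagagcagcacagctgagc
The sequence table used here holds no further part of Malat1, so the bases under the peaks are not printed. The first peak began at base 221, which left 220 bases at the 5′ end without a peak. No peak overlapped the 300 bases around the start site.

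Peaks ran along nearly the whole RNA. They covered 2684 of the 6983 bases, 38.4% of the span, at 5.44 peaks per kb. The first peak lay at bases 221 to 358 (chr19:5802315-5802452) and the last at bases 6431 to 6593 (chr19:5796080-5796242). Malat1 held 1.73% of all listed peaks and 1.92% of all bases in peaks. On the plus strand the same span held 0 peaks.

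On the minus strand, the span stood alone on its part of the chromosome. The minus strand of chromosome 19 held 58 listed peaks, 38 of them in Malat1 and 20 elsewhere. The nearest minus-strand peak beyond the 3′ end lay 37151 bases away. Beyond the 5′ end the nearest lay 1623231 bases away (chr19:7425904-7425948). Neat1, the lncRNA that builds nuclear paraspeckles and the next annotated gene on the 5′ side of Malat1 (chr19:5824708-5845480), held 0 peaks on either strand. No minus-strand peak outside the interval that chose the members therefore lay close to either of its edges. The members nearest the edges were the first and last peaks above. Distances to plus-strand peaks outside the span were not computed.

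**Figure D1:**
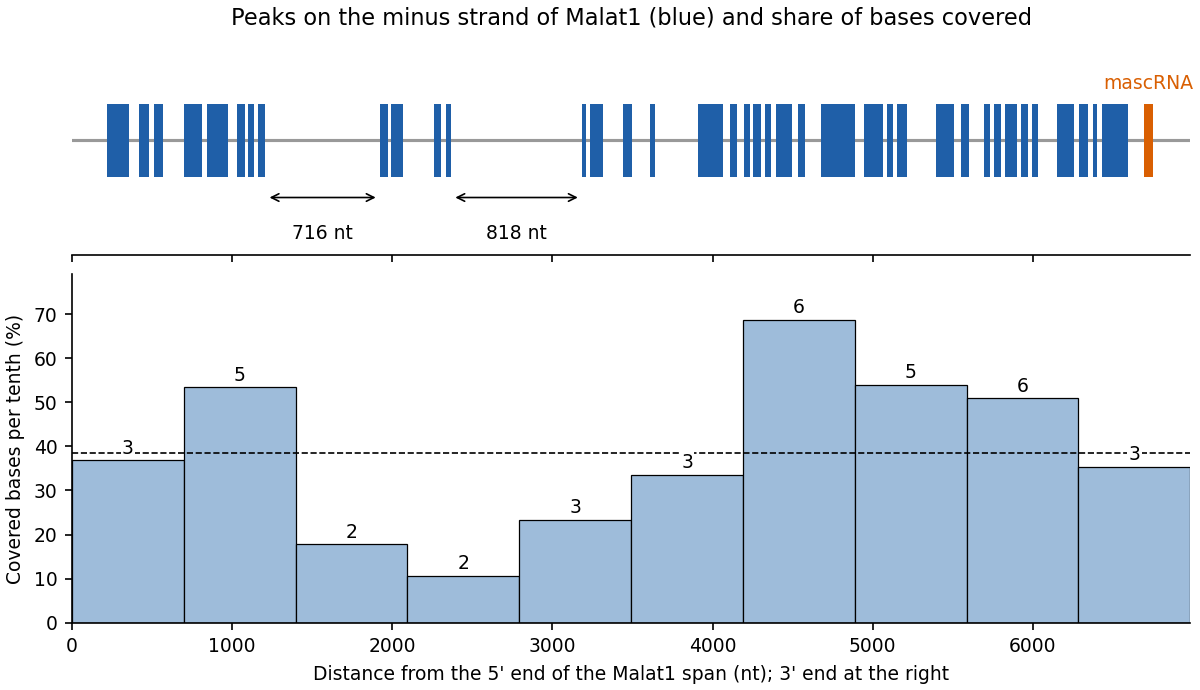
Peaks on the minus strand of Malat1 (upper panel, blue blocks to scale, with mascRNA in orange) and the share of bases that peaks cover in each of 10 equal bins (lower panel, percent, with the number of peak midpoints above each bar and the 38.4% of the whole span as a dashed line), both against the distance from the 5′ end in nt. Coverage is lowest in bin 4 (10.6%), into which the gap of 818 nt reaches, and highest in bin 7 (68.6%).

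Coverage was uneven along the RNA. In 10 equal bins from the 5′ end, peaks covered 36.8% of the bases in bin 1, 53.4% in bin 2, 17.8% in bin 3, 10.6% in bin 4 and 23.3% in bin 5. They then covered 33.5% in bin 6, 68.6% in bin 7, 54.0% in bin 8, 50.9% in bin 9 and 35.4% in bin 10. Bin 10 takes in mascRNA and the bases past it, which are cut off from the long nuclear RNA and held no peak. Every bin held at least 2 peak midpoints, and bins 7 and 9 held 6 each. Before the middle of the span lay 15 midpoints (39.5%) with 28.4% of the bases covered, and after it 23 midpoints (60.5%) with 48.5% covered. The median midpoint lay at base 4245.

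The low middle part began and ended with the 2 longest gaps. It ran from base 1208 to base 3185, a stretch of 1978 bases whose limits were chosen after the values were seen. In it, 4 peaks covered 198 bases (10.01%). The 2 gaps made up 1534 of its bases, so its low coverage follows from where the limits were set. All 4 peaks lay between the gaps, from base 1924 to base 2367. These 4 were 31 to 77 nt wide, and lay as 2 close pairs, at bases 1924 to 2069 and at bases 2261 to 2367. The 1207 bases on the 5′ side of the stretch held 8 peaks that covered 52.2% of them. The 3798 bases on its 3′ side held 26 peaks that covered 48.9%. Median widths were 59.5 nt on the 5′ side, 45 nt within the stretch and 50.5 nt on the 3′ side.

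The 3′ end of the RNA carried peaks up to the region next to mascRNA but none on it. mascRNA is annotated as a separate small RNA of 58 bases inside the Malat1 span (chr19:5795924-5795981, bases 6692 to 6749). The number of peaks that overlapped it, on either strand, was 0. The last Malat1 peak, 163 nt wide and the next to widest of the 38, ended 98 bases before mascRNA began. In all, the last 390 bases of the span held no peak. Of these, only the 98 bases before mascRNA belong to the long nuclear RNA, since mascRNA and what follows are cut off from it.

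Following the RNA from 5′ to 3′, the peaks fell into 11 runs, a run being a set of neighbours with consecutive numbers in the authors' list. The run nearest the 5′ end was the longest, with 8 peaks from base 221 to base 1207. Its peaks were 138, 63, 56, 111, 129, 49, 38 and 46 nt wide in that order, and they covered 63.8% of the run. The sparse stretch then held 2 runs of 2 peaks, 47 and 77 nt wide and 43 and 31 nt wide.

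Past the longest gap came a run of 2 peaks of 25 and 84 nt (bases 3186 to 3315) and 2 lone peaks of 56 nt (bases 3439 to 3494) and 32 nt (bases 3609 to 3640). A run of 7 peaks reached from base 3912 to base 4578, with widths of 156, 44, 36, 49, 42, 97 and 46 nt. It was followed by a run of 4 peaks from base 4680 to base 5216, of 211, 121, 37 and 68 nt. The 500-base window with the highest coverage, 80.0%, ran from base 4680 to base 5179 and fell within that run.

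The remaining 3 runs filled the 3′ part. One held 2 peaks of 112 and 52 nt (bases 5398 to 5601). The next held 5 peaks of 35, 42, 78, 43 and 38 nt (bases 5696 to 6031), and the last held 4 peaks of 105, 59, 25 and 163 nt (bases 6152 to 6593). Within the 9 runs of at least 2 peaks, coverage was 63.8% to 84.9% with a median of 79.6%. The 11 runs together spanned 3644 bases, 52.2% of Malat1.

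Widths of Malat1 peaks had a median near that of other peaks but fewer very narrow members. The 38 peaks had a median width of 50.5 nt (range 25 to 211 nt), and the other 2159 peaks had one of 53 nt (range 15 to 407 nt). At most 30 nt wide were 2 Malat1 peaks (5.26%), both of 25 nt, and 515 other peaks (23.9%). Over 100 nt wide were 9 Malat1 peaks (23.7%) and 334 other peaks (15.5%). Those 9 held 1246 bases, 46.4% of the Malat1 bases in peaks, and the wide peaks elsewhere held 34.0% of the bases in other peaks.

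The widest Malat1 peak, 211 nt, lay at bases 4680 to 4890 (chr19:5797783-5797993), and the next were the last peak, 163 nt, and one of 156 nt at bases 3912 to 4067 (chr19:5798606-5798761). Width did not follow position along the RNA. Across the 38 peaks, which share their libraries and their RNA and are not replicates, the midpoint and the width had a Spearman rho of -0.07 and a Pearson r of 0.0053. Peaks of 1 list give no spread between samples, so the difference in widths from the rest was not tested.

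**Figure D2:**
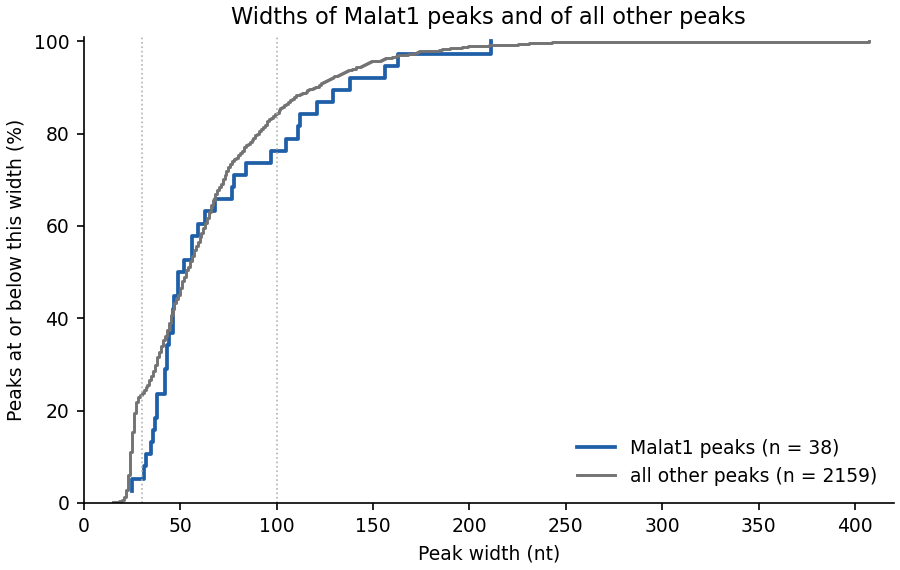
Cumulative share of peaks (percent) at or below each width (nt) for the 38 Malat1 peaks (blue) and the 2159 other peaks (grey), with dotted lines at 30 and 100 nt. The blue line starts at 25 nt and has 5.26% of its peaks at or below 30 nt, where the grey line has 23.9%, and the medians of 50.5 and 53 nt lie close together.

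Neighbouring Malat1 peaks were separated by short gaps. The 37 gaps were 21 to 818 nt long with a median of 36 nt; 27 of them were at most 100 nt and 17 of them 21 to 31 nt. The longest, 818 nt, lay at bases 2368 to 3185, and the next, 716 nt, at bases 1208 to 1923. These 2 gaps made up 1534 of the 4299 bases without a peak (35.7%). From midpoint to midpoint, neighbours lay 63.5 to 846 nt apart, with a median of 111 nt.

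No gap anywhere in the list was shorter than 21 nt. Of the 2155 pairs of neighbours on the same chromosome and strand, 0 lay closer than that and 20 had exactly 21 nt, 2 of them in Malat1. The shortest Malat1 gaps were therefore at the lower limit of the whole list, and separate peaks there do not show separate AGO2 sites. Outside Malat1, 665 neighbours lay within 1000 nt of each other, with a median gap of 87 nt.

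The numbers in the names of the peaks follow position, so they give no view of the tiling that is independent of the gaps. Down the list of 2197 peaks the numbers never fell, and within Malat1 they rose with the coordinate. The last number was 14469, so that 15.2% of the numbers up to it were in the list. What the numbers not in the list stood for is not given in the sources used here. Malat1 peaks took 38 of the 56 numbers between its first and last peak, these 2 included. Leaving out the 2 end peaks, which are in the list by construction, 36 of 54 numbers were present (66.7%).

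The 18 skipped numbers fell in 10 of the 37 gaps. Those 10 gaps were 94 to 818 nt long with a median of 152 nt. The 27 gaps between consecutive numbers were 21 to 132 nt long with a median of 29 nt, and the next to longest was 62 nt. Of the long gaps, the one of 716 nt skipped 5 numbers and the one of 818 nt skipped 2. Outside Malat1, neighbours within 1000 nt followed the same order. Their median gap was 334 nt where numbers were skipped and 38 nt where they were consecutive. If a skipped number stands for an unlisted interval between the neighbours, a longer gap there is fixed in advance. Consecutive numbers joined 73.0% of Malat1 neighbours and 61.1% of those other neighbours.

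**Figure D3:**
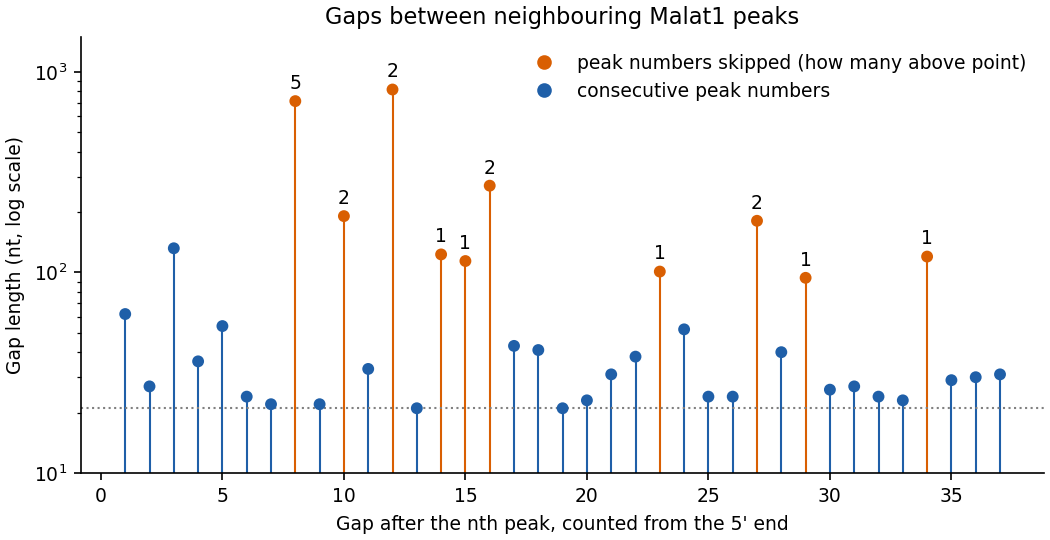
Length of each of the 37 gaps between neighbouring Malat1 peaks (nt, log scale), in order from the 5′ end, with gaps that skip numbers of the authors' peak names in orange (how many stands above the point) and gaps between consecutive numbers in blue. The dotted line marks the shortest gap, 21 nt, and the orange points lie between 94 and 818 nt.

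Malat1 was then set beside the 68 other nuclear genes that held at least 5 peaks of 1 strand, with peaks in small RNA genes left out of their host genes. Malat1 ranked 1 of the 69 by share of its span covered (38.4%), against 0.0398% to 17.1% in the others with a median of 0.914%. It also ranked 1 by peaks per kb of span (5.44, against at most 3.24). Spans include introns, which Malat1 largely lacks, so these orders favour short genes with few introns. Malat1 was picked for its density of peaks, and the ranks are a description.

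Nearest to it by covered share were Rn18s-rs5, a pseudogene of ribosomal RNA (17.1% of 1849 bases, 6 peaks), and Camk2n1, an inhibitor of the kinase CaMKII (12.9% of 4979 bases, 10 peaks). Reads of ribosomal RNA can match many copies, so the place of the Rn18s-rs5 peaks is uncertain. Vamp2, a SNARE protein of synaptic vesicles (7.73%, 7 peaks), and Actb, which encodes beta-actin (7.71%, 5 peaks), ranked 5 and 6.

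To allow for introns, each gene was also described by its densest window of 6983 bases, the length of Malat1. Malat1 again ranked 1 with 38.4%, against 2.94% to 26.6% in the 68 others with a median of 7.56%. Slc1a2, the astrocyte-associated glutamate transporter gene with 45 peaks, followed with 26.6%. Next was Meg3, an imprinted lncRNA with 19 peaks, at 20.1%. Gpm6a, a neuronal membrane glycoprotein gene with 14 peaks, ranked 5 with 17.1%, and Rn18s-rs5 ranked 6 with 17.1% of its whole span.

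The fine structure of the tiling was set beside that of Slc1a2 and Meg3, without a test, since 1 list gives no spread. Median widths were 50.5 nt in Malat1, 57 nt in Slc1a2 and 67 nt in Meg3. Median gaps were 36 nt in Malat1, 72.5 nt in Slc1a2 and 520.5 nt in Meg3, and gaps of at most 100 nt made up 73.0% in Malat1, 56.8% in Slc1a2 and 22.2% in Meg3. Across the 69 genes, 1 other gene had a shorter median gap than Malat1. All these gaps are distances on the genome and can include introns, which Malat1 largely lacks, so they favour Malat1. Of the numbers between the first and last peak, 66.7% were in the list for Malat1, 44.8% for Slc1a2 and 19.1% for Meg3. By this measure Malat1 ranked 5 of the 69, with a median of 33.3% in the other 68.

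**Figure D4:**
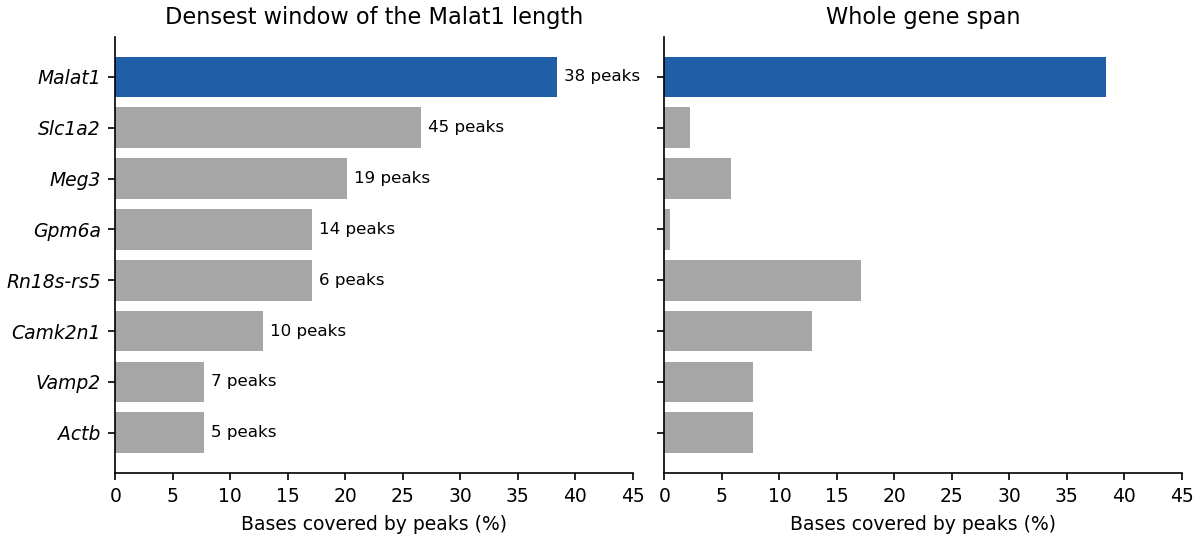
Share of bases covered by peaks (percent) in the densest window of 6983 bases (left) and over the whole gene span (right), for Malat1 (blue) and 7 other genes named in the text (grey), with the number of peaks beside each bar on the left. Malat1 has 38.4% in both panels, and for the genes shorter than the window (Rn18s-rs5, Camk2n1, Vamp2 and Actb) both bars show the whole span.

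Peaks were also counted in the other lncRNAs of a list of 22. Of the 21 besides Malat1, 7 held at least 1 peak outside small RNA genes and 14 held 0, Neat1 among them. These counts leave out peaks in small RNA genes, 6 each in Gas5 and Snhg1, 4 each in Rian and Snhg14 and 1 in Snhg12. The share of all annotated genes with a peak is not given here, so whether 7 of 21 is low or high is unknown. Meg3 held 19 peaks over 30734 bases, and Snhg11, a neuronal lncRNA, held 8 over 10762 bases (7.23% covered). Rian, a host of small RNAs in the same imprinted region as Meg3, held 7. Snhg14 held 3, Norad, a cytoplasmic lncRNA that binds Pumilio proteins, held 2, and Miat and Gas5 held 1 each. All 41 of these peaks lay on 1 strand per gene, as did those of Malat1. Tug1, Kcnq1ot1 and Rmst held 0. A gene without a listed peak is not thereby shown to be unbound, since no expression value was used here.

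The miRNA libraries show which miRNAs were held by AGO2 in the same kind of sample. A list of 13 miRNAs described with Malat1 in the literature, from general knowledge and mostly in human cells, was looked up in them. The libraries held 66854 counts in replicate 1 and 75658 in replicate 2. The 13 miRNAs together took 19.8% of the counts in replicate 1 and 19.1% in replicate 2, a mean of 19.4% ± 0.484 (SD, n = 2).

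Nearly all of that came from 3 miRNAs that are abundant in brain in any case. miR-9-5p, reported to lower MALAT1 in the nucleus of human cells, had 4424 and 4714 counts in replicates 1 and 2. miR-125b-5p had 4458 and 4690 counts, and miR-124-3p had 3684 and 4258. These 3 summed to 18.4% ± 0.522 of the counts (SD, n = 2). miR-204-5p had 264 and 334 counts, miR-101a-3p had 278 and 298, and miR-101b-3p had 95 and 130.

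The mature sequences of the most counted members that matched in the RefSeq table (GRCm38.p6) are shown with their seed, bases 2 to 8, in capitals, because the seed is the part that pairs with a target. miR-211-5p is added because its seed is that of miR-204-5p.
miR-9-5p: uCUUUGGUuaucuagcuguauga
miR-125b-5p: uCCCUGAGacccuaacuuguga
miR-204-5p: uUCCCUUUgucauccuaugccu
miR-211-5p: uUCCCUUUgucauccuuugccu
miR-101a-3p: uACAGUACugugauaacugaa
miR-101b-3p: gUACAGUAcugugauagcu
miR-211-5p had 0 counts in both libraries, so the counts of this shared seed came from miR-204-5p.

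The other listed miRNAs were at or near 0. miR-133a-3p, a muscle miRNA described with Malat1 in mouse myoblasts, had 6 and 8 counts. miR-145a-5p had 4 and 1 counts, and miR-205-5p had 0 and 2. miR-217-5p, miR-133b-3p, miR-200c-3p and miR-211-5p had 0 in both libraries, so their shares could have been as high as 0.00449% of the replicate 1 library and 0.00397% of the replicate 2 library, counting error only. No Malat1 sequence under the peaks was used here, so no peak is assigned to a miRNA, and these counts do not say which of the miRNAs, if any, AGO2 carried on Malat1.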

How the data were processed

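The labels' protocols describe pull-down of tagged AGO2 with its RNA on a SpyCatcher3 resin, a gel cut from 70 to 150 kDa and single reads of 100 bp. Tools named without a role in the submitters' processing notes are STAR 2.5.2a, Bowtie2 2.4.2, UMI-tools, cutadapt 2.10, deepTools 3.1.3 and DESeq2 1.36.0, and the build is mm10. No source used here gives the peak caller, its thresholds or any pooling. The deposited peak list gives other values (start and end coordinates) and a score, which the authors left at 0 for every peak. The miRNA values are counts as deposited by the authors, per mature miRNA, and the name of the count tables says that duplicates were kept.

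From these, widths, gaps, covered bases and positions were computed with Python 3.11.15, numpy 2.4.6 and pandas 2.3.3, and gene spans were taken from RefSeq on GRCm38.p6, the assembly of mm10. All 22 lncRNA symbols matched, and 10 of 13 miRNAs had a mature sequence. A peak belonged to a gene by its midpoint. For genes other than those of the lncRNA list, peaks of each strand were counted separately, whatever the strand of the gene. A peak could therefore count for each of several overlapping genes. The genes ranked beside Malat1 may include some credited with peaks of an overlapping gene or of the opposite strand. No test was run. The depth behind a peak is unknown. The functions were tested on simulated spans. Members, lists and measures were chosen with earlier results of these data known. Named genes were Malat1, lncRNAs of the list, the neighbour on chromosome 19 and the 5 genes nearest in each order, with some genes that the rule names not reported here; the marker genes were added later. The planned count of seed matches was not run because the transcript sequence was not used here.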

Additional observations from a re-analysis of the deposited data

How the results depend on the processing

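Counting peaks by any overlap, on both strands, or joined across gaps of at most 10 nt left all 5 Malat1 peak measures as reported. With these settings no change was possible. No peak crossed an edge of the span, the plus strand held 0 peaks there, and no gap was under 21 nt. A minimum width of 30 nt kept 36 peaks. With a minimum width of 50 nt, which by construction removes the narrow peaks, Malat1 held 19 peaks that covered 27.7% of the span, with a median width of 97 nt and a median gap of 127.5 nt. Malat1 ranked 1 by covered share and by densest window with at least 3 or 5 peaks per gene. The same held with peaks in small RNA genes credited to the host, a setting chosen after seeing the data. Raising the minimum to 10 peaks only removes genes, so the rank of 1 there was fixed. In windows of 50% of the span Malat1 ranked 1 (53.2%, next Slc1a2 with 36.6%). In windows of 200% it ranked 1 as well (38.4%, next Slc1a2 with 19.3%). There Malat1 was still scored over its own span and longer genes over more bases, so that setting favours Malat1. The summed share of the 13 miRNAs was 19.1% to 19.8% with either library left out, and 22.4% with miR-128-3p taken out of the total, a smaller denominator. No paired analysis was possible because values per library were used for the miRNA group only. The single peak list has no replicates, so the precision of the peak measures is unknown.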
